A study of Danio rerio with 11 samples.

Results

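The genes described here are aanat2 (ENSDARG00000079802), crx (ENSDARG00000043483) and pde6h (ENSDARG00000056791), 3 of the 27625 genes in the deposited zebrafish tables. They are genes of the light-sensing cells of the pineal organ and the retina. They were selected on measured values, their FPKM in these same 11 libraries, so their values are given as a description and without a test. The libraries came from whole 120 hpf (hours post-fertilization) F1 larvae of the AB strain, wild type in genotype, whose parents had been exposed for 30 days. The parental exposure was DBP (3 libraries), DiBP (3 libraries), both DBP and DiBP, called combined here (3 libraries), or no agent (control, 2 libraries). DBP and DiBP are dibutyl phthalate and diisobutyl phthalate, plasticizers that are isomers of each other. Doses, the parent or parents exposed, the number of larvae in a library and the hour of collection are not given in the sources used here, and control libraries other than these 2 were not analysed here. Nothing in the labels says that libraries of a group came from separate clutches, so the spread between them may be technical.

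The pineal organ of fish holds photoreceptor cells that sense light directly and release melatonin at night. The enzyme encoded by aanat2, arylalkylamine N-acetyltransferase 2, controls how much melatonin is made in the zebrafish pineal, and its transcript is known to rise and fall daily under the circadian clock. The homeobox transcription factor Crx is expressed in pineal and retinal photoreceptors and activates genes of the photoreceptor programme. The product of pde6h is known in mammals as the inhibitory subunit of the cone phosphodiesterase, the enzyme that breaks down cyclic GMP when light activates the phototransduction cascade.

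The library totals, recovered from the deposited FPKM (fragments per kilobase of gene, scaled to library size), lay between 13396589 and 15381114 reads. Of the 11 libraries, 2 stood apart. Control library 1 had the lowest summed level of 13 skeletal muscle genes, 11862 FPKM, where control library 2 had 40614 FPKM. Combined library 3 differed from the other 2 of its group in clock and photoreceptor genes, such as NR1D1 (ENSDARG00000033160, Rev-erb alpha), at 6.17, 5.84 and 84.8 FPKM in combined libraries 1, 2 and 3. The control and combined values below therefore rest on groups with 1 such library each, and results are also given without them. Among all genes, aanat2 ranked 4096, crx 2802 and pde6h 3051 by mean FPKM.

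The melatonin enzyme gene aanat2 was far higher in the combined group than in every other group. Its level was 5.17, 3.80 and 4.13 FPKM in the DBP libraries, 4.71, 3.37 and 3.45 FPKM in the DiBP libraries, 42.5, 42.6 and 22.7 FPKM in the combined libraries, and 6.07 and 6.70 FPKM in the control libraries. The lowest combined library thus lay above all 8 libraries of the other groups. The group means were 4.37 ± 0.716 FPKM for DBP (SD, n = 3), 3.84 ± 0.750 FPKM for DiBP (SD, n = 3), 35.9 ± 11.5 FPKM for combined (SD, n = 3) and 6.39 ± 0.450 FPKM for control (SD, n = 2). In ratios of these means, combined offspring had 8.22 times the DBP level, 9.35 times the DiBP level and 5.63 times the control level. On the scaled log2(FPKM + 0.1) scale used for all differences, the combined minus control difference was 2.35 ± 0.24 (SE), the 16th highest of 19465 tested genes. The combined minus DBP difference was 2.80 ± 0.22, and the combined minus DiBP difference was 3.04 ± 0.22.

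In offspring of parents given a single agent, aanat2 lay below the control range. The highest of the DBP values, 5.17 FPKM, and the highest of the DiBP values, 4.71 FPKM, were both under the lower control value of 6.07 FPKM. The DBP minus control difference was -0.45 ± 0.24 and the DiBP minus control difference was -0.69 ± 0.24, both on the log2 scale. Ranges that did not overlap were common in these comparisons: 20.4% of tested genes had a DBP range wholly below the control range, and 26.5% had such a DiBP range. The DBP and DiBP ranges of aanat2 overlapped, with a log2 difference of 0.23 ± 0.22. The order of the group means was therefore combined, control, DBP and DiBP, and the last 2 did not differ beyond their spread.

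The combined libraries were not alike in aanat2. They held 861, 888 and 469 reads of the gene, against 129 and 146 reads in the control libraries. The exact Poisson 95% interval of combined library 3, from 20.7 to 24.8 FPKM, did not reach that of combined library 1, from 39.7 to 45.4 FPKM, or that of combined library 2, from 39.9 to 45.5 FPKM. These intervals cover counting error only. Without combined library 3, the combined minus control difference was 2.62, and without both libraries that stood apart it was 2.55. The gene's coefficient of variation was 32.0% in the combined group and 7.04% in the control group.

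The transcription factor gene crx was also higher in the combined group, with little difference among the other groups. It was at 13.5, 12.5 and 14.2 FPKM in the DBP libraries, 15.6, 16.6 and 15.2 FPKM in the DiBP libraries, 30.0, 31.9 and 36.0 FPKM in the combined libraries, and 14.3 and 16.8 FPKM in the control libraries. All 3 combined libraries were above the 8 others, and the highest was library 3, the library with the lowest aanat2 of that group. Mean levels were 13.4 ± 0.864 FPKM for DBP (SD, n = 3), 15.8 ± 0.746 FPKM for DiBP (SD, n = 3), 32.6 ± 3.06 FPKM for combined (SD, n = 3) and 15.5 ± 1.75 FPKM for control (SD, n = 2). The combined mean was 2.44 times the DBP mean, 2.06 times the DiBP mean and 2.101 times the control mean. The gene table calls ENSDARG00000043483 CRX, and whether it is zebrafish crx or a related gene such as otx5 was not settled.

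For crx the log2 differences of the combined group were 0.999 ± 0.12 against control, 1.11 ± 0.11 against DBP and 0.92 ± 0.11 against DiBP. Without both libraries that stood apart, the combined minus control difference was 0.78. The DiBP and control ranges overlapped, with a difference of 0.08 ± 0.12 that became -0.03 without both. The DBP libraries lay below both control libraries as deposited, but after scaling the ranges overlapped, and the difference was -0.11 ± 0.12. DBP lay below DiBP in every library, by -0.19 ± 0.11 on the log2 scale, as did 23.4% of tested genes. The order of mean levels was combined, DiBP, control and DBP. After scaling, neither DiBP nor DBP differed from control beyond the spread.

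The phosphodiesterase gene pde6h separated all 4 groups. Its level was 18.9, 17.1 and 18.6 FPKM in the DBP libraries, 14.7, 14.6 and 12.0 FPKM in the DiBP libraries, 29.1, 26.0 and 28.3 FPKM in the combined libraries, and 9.76 and 10.3 FPKM in the control libraries. No library of one group fell within the range of another. How many of all tested genes showed such a full separation was not counted. Combined was highest at 27.8 ± 1.65 FPKM (SD, n = 3), followed by DBP at 18.2 ± 1.01 FPKM (SD, n = 3), DiBP at 13.8 ± 1.51 FPKM (SD, n = 3) and control at 10.05 ± 0.410 FPKM (SD, n = 2). In ratios of means, DBP offspring had 1.81 times, DiBP offspring 1.37 times and combined offspring 2.77 times the control level.

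On the log2 scale, pde6h differed from control by 0.95 ± 0.12 with DBP, 0.49 ± 0.12 with DiBP and 1.39 ± 0.12 with both. Between exposed groups, DBP minus DiBP was 0.45 ± 0.11, combined minus DBP was 0.44 ± 0.11 and combined minus DiBP was 0.90 ± 0.11. The share of tested genes with a range wholly above control was 22.5% for DBP, 27.5% for DiBP and 13.5% for combined. DBP lay wholly above DiBP in 22.8% of tested genes, and combined lay above DBP in 20.5% and above DiBP in 22.3%. The controls of pde6h were close together, and the difference between combined and control without both libraries that stood apart was 1.31. Combined library 3 lay inside its group, at 28.3 FPKM.

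**Figure D1:**
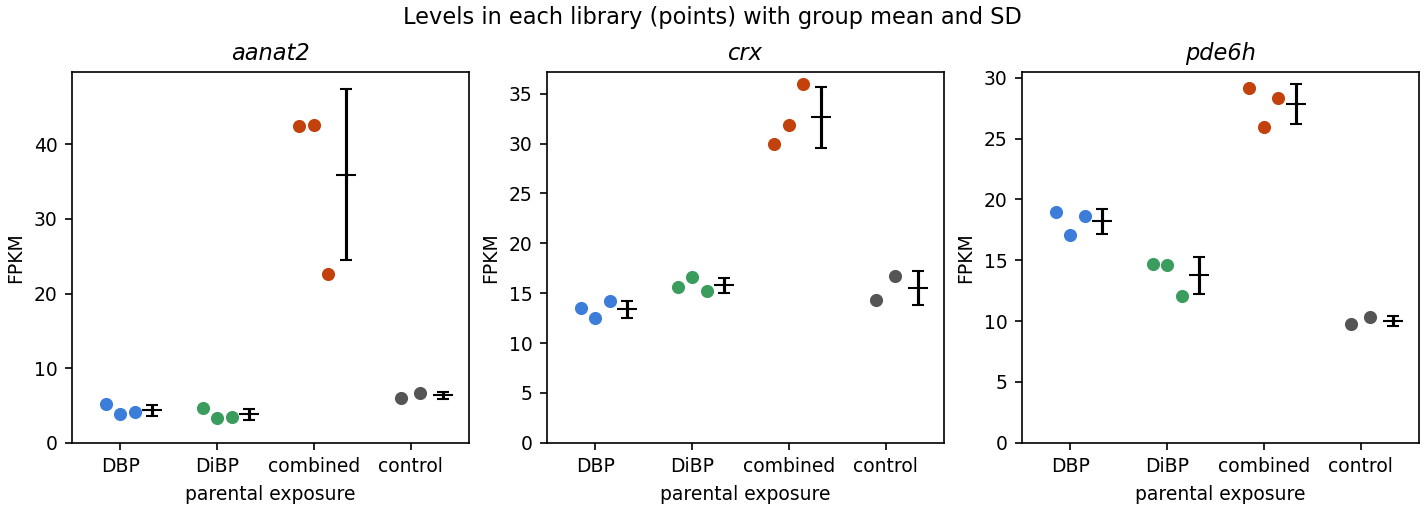
FPKM of aanat2, crx and pde6h (vertical axes, each from 0) in the DBP, DiBP, combined and control libraries. Coloured points are single libraries, and the black bar beside them is the group mean with its SD (n = 3, 3, 3 and 2). For each gene the 3 combined libraries sit above the 8 others, aanat2 is at 22.7 FPKM in combined library 3, and pde6h forms 4 steps.

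All 3 genes shared the placement of the combined group above the 8 other libraries, which 660 tested genes, or 3.39%, also showed. Their order among the other groups was not shared. Both single exposures lay below control for aanat2, within 0.19 log2 units of each other and close to control for crx, and above control for pde6h. The ratio of aanat2 to crx in FPKM was 0.327 ± 0.0497 with DBP, 0.244 ± 0.0513 with DiBP, 1.13 ± 0.433 with both and 0.412 ± 0.0175 in control (SD, n = 3, 3, 3 and 2). The lowest combined ratio, 0.630, was above the highest control ratio, 0.425. The ratio of pde6h to crx was highest with DBP, at 1.36 ± 0.0460, against 0.870 ± 0.0746 with DiBP, 0.858 ± 0.0996 with both and 0.650 ± 0.0468 in control.

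Over the 11 libraries, Pearson's r of the log2 levels was 0.901 for aanat2 with crx, 0.666 for aanat2 with pde6h and 0.693 for crx with pde6h. The combined libraries form a cluster of their own, so these values describe a contrast of groups. Within the 8 other libraries r was -0.0707, -0.371 and -0.358 in the same order. The 8 libraries also fall into groups, and the values are given as a description.

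Beside aanat2, 9 other genes of melatonin synthesis and reception were tested. In the combined group against control 0 were called higher and 0 lower (limma, Benjamini-Hochberg adjusted p under 0.05), where 3.44% of all tested genes were called. At an unadjusted limma p under 0.05 the counts were 3 higher and 1 lower, and voom on the recovered reads called 0. Without combined library 3 or without control library 1 limma called 1 higher and 0 lower, without control library 2 it called 1 higher and 1 lower, and without both libraries that stood apart 3 higher and 0 lower. The median log2 difference of the 9 genes was 0.50, against 0.00 for all tested genes, and 8 of the 9 differences were positive. The tryptophan hydroxylase gene TPH1 (ENSDARG00000029432), for the first step from tryptophan, was at 6.64, 6.36 and 3.22 FPKM in the combined libraries and 3.61 and 3.26 FPKM in the control libraries. As in aanat2, combined library 3 was the lowest of its group. Its combined minus control difference of 0.51 ± 0.24 was not called (limma adjusted p = 0.256), while that against DiBP was (1.25 ± 0.21, limma adjusted p = 0.00126). Another tryptophan hydroxylase gene, TPH2 (ENSDARG00000057239), went the other way, at 6.64, 7.24 and 6.88 FPKM in combined and 9.39 and 7.43 FPKM in control libraries. The TPH2 difference of -0.33 ± 0.14 was not called (limma adjusted p = 0.192). The other N-acetyltransferase gene, AANAT (ENSDARG00000036567), matched as aanat1, was at 1.86, 2.03 and 3.996 FPKM in the combined libraries and 2.54 and 1.82 FPKM in the control libraries, and the ranges overlapped.

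The gene of the last step, ASMT (ENSDARG00000098249), which methylates N-acetylserotonin to melatonin, averaged 5.15 FPKM in combined and 4.82 FPKM in control offspring. Its difference was 0.01 ± 0.23 (limma adjusted p = 0.989). Its paralogue asmt2 (ENSDARG00000070874) fell in DiBP offspring, by 0.72 ± 0.18 on the log2 scale against control (limma adjusted p = 0.0125), a call lost without control library 1. In that comparison 2 of the 9 genes were called lower and 0 higher, with 29.8% of all tested genes called. The second was TPH1, which fell by 0.75 ± 0.24 (limma adjusted p = 0.0329), a call lost without control library 1, without any 1 of the DiBP libraries and by voom. Without control library 1 the list turned to 2 called higher and 0 lower, and without both libraries that stood apart to 2 higher and 2 lower. In DBP against control limma and voom each called 0 of 9, with 15.1% of all tested genes called by limma, and at an unadjusted limma p under 0.05 there were 0 higher and 1 lower. Without control library 1 limma called 1 higher there.

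Among 8 tested genes of the pineal complex other than aanat2, 1 was called higher and 0 lower in combined offspring against control, where 3.44% of all tested genes were called. This was the T-box factor gene TBX2 (ENSDARG00000018025), at 3.16, 3.26 and 3.13 FPKM in the combined libraries and 1.73 and 1.81 FPKM in the control libraries. Its difference was 0.75 ± 0.15 (limma adjusted p = 0.0204), and the call was lost without combined library 1 or 2. A second gene with the symbol TBX2 (ENSDARG00000006120) was at 14.0, 13.2 and 13.2 FPKM in the combined libraries and 9.36 and 10.6 FPKM in the control libraries, and was not called (0.36 ± 0.12, limma adjusted p = 0.120). Which zebrafish paralogue each ID is was not settled. The pineal opsin gene exorh and the pineal factor gene otx5 could not be matched to an ID and are given no value under those names. The summed level of 9 pineal genes ran from 54.3 to 60.1 FPKM in combined and from 48.6 to 62.2 FPKM in control libraries. Much of this sum was 1 gene, parapinopsinb (ENSDARG00000044672). It was at 27.2, 28.5 and 35.3 FPKM in the combined libraries and 41.5 and 26.5 FPKM in the control libraries. Since whole larvae were used, more cells of a type and more RNA per cell cannot be told apart for any of these genes.

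Of 14 tested photoreceptor transcription factors other than crx, 2 were called higher and 1 lower in combined offspring against control, or 21.4% against 3.44% of all tested genes. Without combined library 3 the counts were 4 higher and 1 lower, and without combined library 1 they were 1 higher and 0 lower. The homeobox gene six7 (ENSDARG00000070107), a zebrafish regulator of middle-wavelength cone opsins, resembled crx most. It was at 7.97, 6.89 and 6.95 FPKM in the DBP libraries, 10.4, 10.2 and 9.69 FPKM in the DiBP libraries, 22.4, 21.7 and 27.8 FPKM in the combined libraries, and 7.58 and 8.504 FPKM in the control libraries. As with crx, combined library 3 was the highest. Its combined minus control difference was 1.49 ± 0.13 (limma adjusted p = 0.000341). The eye-field gene rx3 (ENSDARG00000052893) rose by 0.73 ± 0.15 (limma adjusted p = 0.0247, lost without combined library 1). The related gene rx1 (ENSDARG00000071684) fell by 0.65 ± 0.15 (limma adjusted p = 0.0391), at 7.21, 6.72 and 9.48 FPKM in combined and 10.6 and 12.7 FPKM in control libraries. The rx1 call was lost in 8 of the 11 fits that left out 1 library.

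The DiBP offspring, in which crx was level with control, had 0 of these 14 factor genes called higher and 6 lower against control, where 14.0% of all tested genes were called lower. The 6 were 3 without control library 1, 2 to 4 without any 1 of the DiBP libraries, 4 without any 1 of the DBP libraries, and 4, with 2 called higher, without control library 2. One was NEUROD1 (ENSDARG00000019566), a differentiation factor of photoreceptors and neurons, at -1.70 ± 0.31 (limma adjusted p = 0.00187). In DBP offspring 1 was called higher and 1 lower, or 14.3% against 15.1% of all tested genes. Relative to DiBP, the combined group had 7 called higher and 1 lower, with 24.0% of all tested genes called.

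The visual opsins, photopigment genes of rods and cones, were higher in combined offspring as crx was. Of 9 tested, 6 were called higher and 0 lower against control, with a median difference of 0.84, and 1.75% of all tested genes were called higher. The 6 were 2 without combined library 1 or 2, 3 or 4 without any 1 of the DBP or DiBP libraries, and 8 without combined library 3 or control library 2. The green cone opsin gene opn1mw1 (ENSDARG00000097008) was at 539, 531 and 446 FPKM in the combined libraries and 173 and 209 FPKM in the control libraries, a difference of 1.34 ± 0.11 (limma adjusted p = 0.000203). The red cone opsin gene opn1lw2 (ENSDARG00000044861) differed by 1.44 ± 0.19 (limma adjusted p = 0.00248). Against control, 5 of the 9 (55.6%) were called lower and 0 higher in DiBP offspring. There 29.8% of all tested genes were called, and 14.0% were called lower. In DBP offspring 2 (22.2%) were called lower and 0 higher, where 15.1% of all tested genes were called. Without DBP library 3, 0 were called lower with DBP, and voom on the recovered reads called 1 higher and 1 lower there. After scaling, crx overlapped the control range in both of these groups. Opsin levels were known from these data before the list was made.

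The other phosphodiesterase 6 subunit genes differed in their order of group means. One gene for a rod catalytic subunit, PDE6B (ENSDARG00000011671), had the order of pde6h, at 8.84 FPKM with DBP, 8.10 FPKM with DiBP, 9.60 FPKM with both and 7.51 FPKM in control, but its combined and DBP ranges overlapped and none of its 6 differences was called by limma. The other PDE6B gene (ENSDARG00000000380) averaged 10.4, 8.03 and 9.47 FPKM in DBP, DiBP and combined offspring and 9.15 FPKM in control. The gene PDE6C (ENSDARG00000100397), for the cone catalytic subunit, was at 77.8, 74.9 and 73.4 FPKM in the DBP libraries, 161, 170 and 151 FPKM in the DiBP libraries, 27.6, 26.1 and 17.5 FPKM in the combined libraries, and 24.5 and 30.9 FPKM in the control libraries. It was thus highest in DiBP offspring, whereas pde6h was highest in combined offspring. PDE6C rose against control with DBP (1.55 ± 0.15, limma adjusted p = 0.000114) and with DiBP (2.59 ± 0.15, limma adjusted p = 1.43e-06), and was not called with both (-0.31 ± 0.15, limma adjusted p = 0.280). Its combined minus DiBP difference was -2.90 ± 0.14 (limma adjusted p = 7.91e-08), where that of pde6h was 0.90 ± 0.11.

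A gene of the same family as pde6h, pde6ha (ENSDARG00000102558), was expressed at far higher levels and in another order. It was at 4350, 4187 and 3873 FPKM in the DBP libraries, 2653, 2563 and 2392 FPKM in the DiBP libraries, 1096, 970 and 176 FPKM in the combined libraries, and 1680 and 1518 FPKM in the control libraries. The combined libraries lay below all others, where those of pde6h lay above, and library 3 was the lowest. Combined minus DBP was -3.02 ± 0.48 (limma adjusted p = 0.00142), and combined minus control was -1.55 ± 0.54 and not called (limma adjusted p = 0.130). Without combined library 3 the values were -2.20 ± 0.12 (limma adjusted p = 2.46e-06) and -0.73 ± 0.13, which was then called (limma adjusted p = 0.0111). The files give ENSDARG00000056791 no name, the gene table calls it PDE6H, and which zebrafish paralogue it is was not settled. How alike the sequences of pde6h and pde6ha are was not examined, and how shared reads were counted is not given. The level of pde6h is uncertain to that extent. Any part of shared reads in the pde6h values was not tested.

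The rod inhibitory subunit gene PDE6G (ENSDARG00000101984) was at 40.8, 40.2 and 40.8 FPKM in the DBP libraries, 16.8, 17.6 and 17.3 FPKM in the DiBP libraries, 32.8, 32.9 and 27.3 FPKM in the combined libraries, and 17.2 and 31.2 FPKM in the control libraries. It rose with DBP against control (0.90 ± 0.18, limma adjusted p = 0.00660), as pde6h was higher there, but DiBP overlapped the control range. The cone transducin gene GNAT2 (ENSDARG00000042529) had means of 241 FPKM with DBP, 246 FPKM with DiBP, 240 FPKM with both and 160 FPKM in control. The combined libraries were uneven, at 288, 290 and 141 FPKM, against 146 and 173 FPKM in the control libraries. Combined library 3 thus lay below both controls for GNAT2. Of the GNAT2 differences from control, that with DiBP was called (0.67 ± 0.22, limma adjusted p = 0.0398). The call was lost with FPKM as deposited and without control library 1 or any 1 of the DBP or DiBP libraries. The call does not set DiBP apart from DBP in level. The DBP libraries, at 249, 232 and 241 FPKM, overlapped the DiBP libraries, at 246, 260 and 232 FPKM.

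**Figure D2:**
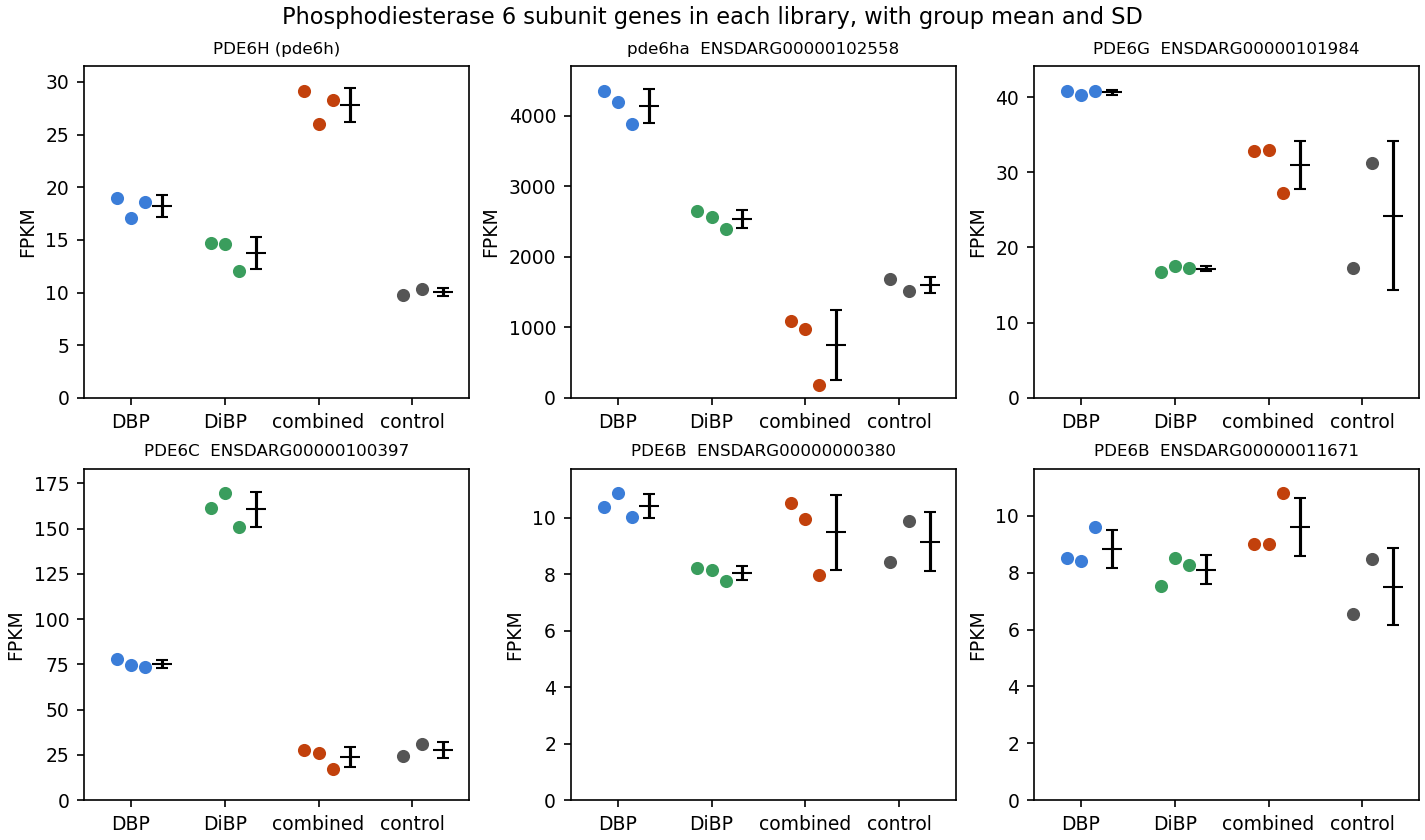
FPKM (vertical axes, each from 0) of pde6h, listed as PDE6H, and of the other phosphodiesterase 6 subunit genes in each DBP, DiBP, combined and control library, with group mean and SD beside the points. The combined group is highest for pde6h at 27.8 FPKM and lowest for pde6ha, while PDE6C is highest in DiBP offspring.

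Over the 43 tested genes of phosphodiesterase and phototransduction, pde6h left out, 13 were called higher and 2 lower with DBP, 14 higher and 7 lower with DiBP, and 6 higher and 0 lower with both, each against control. These are 34.9%, 48.8% and 14.0% of the list, where 15.1%, 29.8% and 3.44% of all tested genes were called. The 13 higher with DBP were 23 without combined library 3, and the 6 higher with both were 2 without combined library 1 or 2 or any 1 of the DBP or DiBP libraries, 8 without combined library 3 and 12 without control library 2. The median differences were 0.50, 0.20 and 0.27 in that order, against medians of -0.01, 0.02 and 0.00 over all tested genes. The list as a whole was not highest in the combined group. Combined against DBP had 7 called higher and 12 lower (44.2%), where 3915 of 19465 tested genes were called. Against DiBP it had 13 higher and 13 lower (60.5%, with 24.0% of all tested genes called). One of the lower genes was GRK7 (ENSDARG00000020602), at -2.74 ± 0.09 against DiBP (limma adjusted p = 8.45e-09). The calcium sensor gene rcvrna (ENSDARG00000052223), a recoverin of photoreceptors, had the order combined above all 8 others, at 36.0, 36.5 and 32.0 FPKM against 6.98 and 12.4 FPKM in control. Its combined minus control difference was 1.82 ± 0.18 (limma adjusted p = 0.000764). The cone transducin subunit gene GNGT2 (ENSDARG00000103543) rose by 1.01 ± 0.13 (limma adjusted p = 0.00237). A second gene with the symbol GNGT2 (ENSDARG00000010680) was at 144, 143 and 117 FPKM in combined and 122 and 121 FPKM in control libraries. Its combined and control ranges overlapped.

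Taking the pineal and photoreceptor lists as one, 83 of 90 genes found passed the filter on low values. In combined offspring 15 were called higher and 1 lower against control, which is 19.3% against 3.44% of all tested genes. With DBP 14 were called higher and 6 lower, which is 24.1% against 15.1% of all tested genes, and with DiBP 15 higher and 21 lower, which is 43.4% against 29.8%. The DBP count of 20 was 33 without combined library 3. The combined minus control count of 16 was 5 without combined library 1, 6 without combined library 2 and 8 or 9 without any 1 of the DBP or DiBP libraries. It was 25 without combined library 3, 28 without control library 2 and 35 without control library 1 and combined library 3 together. All 3 combined libraries lay above the 8 others in 13 of the 83 genes, or 15.7%, against 3.39% of all tested genes. The 13 were spread unevenly. They were 6 of 9 visual opsins, whose levels were known beforehand, and 3 of 43 phototransduction genes (6.98%). The rest were 2 of 14 transcription factor genes and 2 of 8 pineal genes, with 0 of 9 melatonin genes. The placement was not particular to these lists. It was also seen in 4 of 23 tested genes of other eye cells (17.4%) and 5 of 34 clock genes (14.7%), and in 0 of 13 skeletal muscle genes.

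**Figure D3:**
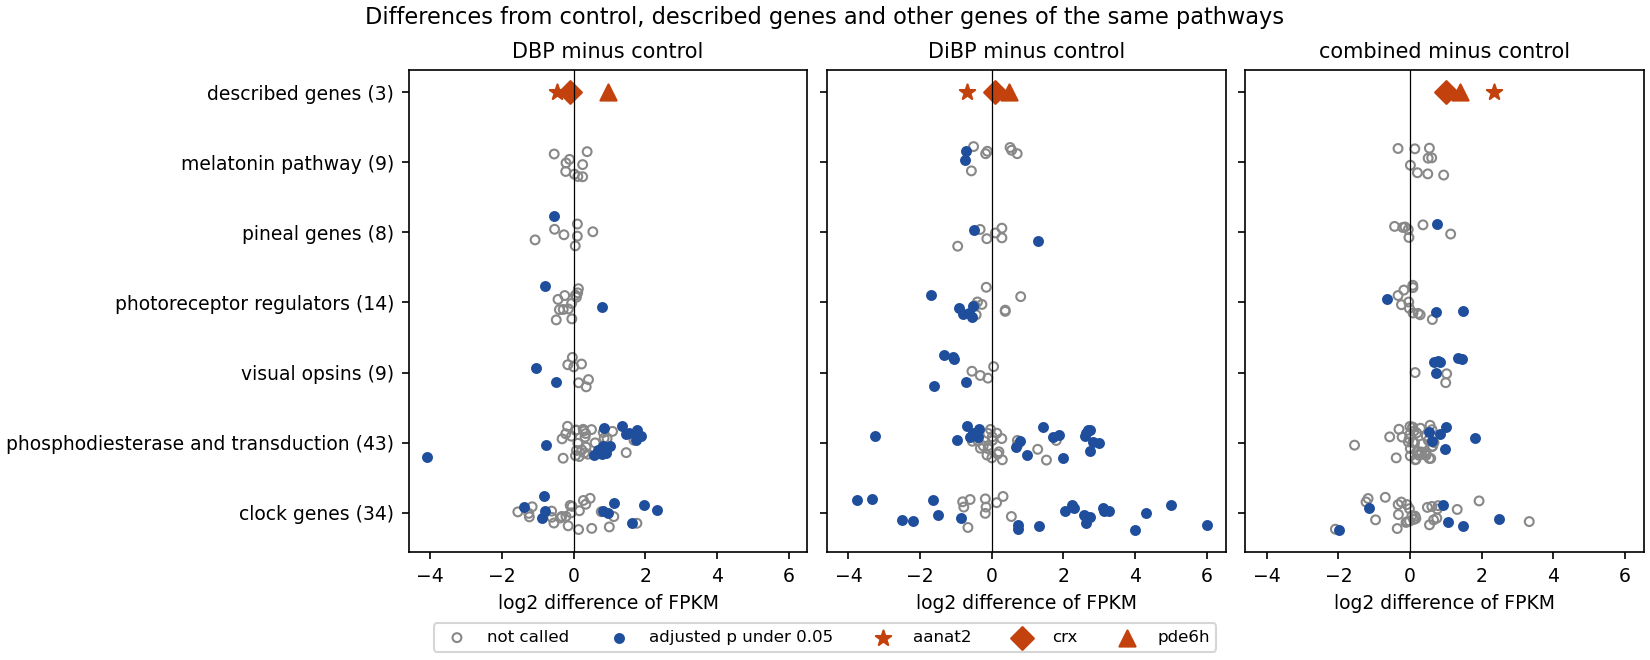
Log2 differences from control (horizontal axes) for DBP, DiBP and combined offspring, for aanat2, crx and pde6h (orange, top row) and for 6 lists of other genes, with the number tested in brackets. Filled blue points were called by limma at an adjusted p under 0.05, and vertical scatter within a row has no meaning. In the combined panel the described genes lie at 2.35, 0.999 and 1.39, the opsins lie to the right of 0, and the melatonin row has no filled point.

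The transcript of aanat2 is an output of the circadian clock, and 34 clock genes were tested. Of these, 6 were called higher and 4 lower with DBP, 17 higher and 7 lower with DiBP, and 4 higher and 2 lower with both, each against control. These are 29.4%, 70.6% and 17.6% of the list, where 15.1%, 29.8% and 3.44% of all tested genes were called. Without combined library 3 the DBP counts were 10 higher and 9 lower and the combined counts 5 higher and 4 lower, and without control library 2 the combined counts were 7 higher and 3 lower. The DBP counts were 6 higher and 1 lower without any 1 of the DBP libraries, and the combined counts were 2 higher and 2 lower without combined library 1, control library 1 or DBP library 2. The gene bmal2 (ENSDARG00000041381), for a partner of Clock, was at 1.88, 1.86 and 1.85 FPKM in the DBP libraries, 0.471, 0.818 and 0.724 FPKM in the DiBP libraries, 7.93, 6.97 and 8.54 FPKM in the combined libraries, and 4.09 and 2.99 FPKM in the control libraries. Its group means had the same order as those of aanat2, an order that was not counted over the list or over all tested genes. It rose in the combined group (1.06 ± 0.20, limma adjusted p = 0.0150, lost without combined library 1), and fell with DBP by 0.78 ± 0.20 (limma adjusted p = 0.02, lost without control library 1 or any 1 of the DBP libraries) and with DiBP by 2.21 ± 0.20 (limma adjusted p = 2.76e-05).

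The repressor gene BHLHE40 (ENSDARG00000004060) had the reverse order, which was not counted over other genes either. Its levels were 105, 104 and 107 FPKM in the DBP libraries, 145, 149 and 141 FPKM in the DiBP libraries, 10.6, 11.5 and 7.23 FPKM in the combined libraries, and 40.1 and 33.3 FPKM in the control libraries. Against control it rose with DBP (1.62 ± 0.14, limma adjusted p = 6.78e-05) and with DiBP (2.03 ± 0.14, limma adjusted p = 4.98e-06), and fell in the combined group by 1.99 ± 0.14 (limma adjusted p = 0.000138). Of the period genes, PER3 (ENSDARG00000010519) fell in the combined group by 1.15 ± 0.17 against control (limma adjusted p = 0.00422) and rose with DiBP (2.30 ± 0.17, limma adjusted p = 6.66e-06). The gene nr1d2a (ENSDARG00000003820), for a Rev-erb receptor, rose in the combined group by 0.93 ± 0.14 (limma adjusted p = 0.00569). The hour of collection of each library is not given, and its part in the aanat2 values was not tested.

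Markers of other eye cells were set beside these values. Of 23 tested genes of pigment epithelium, inner retina, Müller glia and lens, 2 were called higher and 0 lower in combined offspring against control, where 3.44% of all tested genes were called, and their median difference was 0.00. Without control library 2 the counts were 4 higher and 3 lower, without control library 1 they were 2 and 2, and without both libraries that stood apart 9 and 7. The summed level of all 24 ran from 849 to 1037 FPKM in combined and from 959 to 1331 FPKM in control libraries, and 0 of the 24 were at 0 in every library. Of the 13 skeletal muscle genes, limma called 0 between combined and control, voom called 1 higher, and 6 were higher at an unadjusted limma p under 0.05. Limma called 12 of them higher without control library 2, and 2 lower without control library 1. Their summed level ran from 36276 to 46332 FPKM in combined libraries and from 11862 to 40614 FPKM in control libraries. Their median differences from control were 1.23 with DBP, 1.22 with DiBP and 1.05 with both, and 0.18, 0.13 and -0.14 without control library 1. Without that library the combined minus control differences of aanat2, crx and pde6h were 2.28, 0.88 and 1.35.

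The genes whose levels most resembled those of aanat2 over the 11 libraries were GDPD1 (r = 0.984), a lipid phosphodiesterase gene, YWHAH (r = 0.984), for a 14-3-3 protein, guca1aa (r = 0.977), si:dkey-245f22.5 (r = 0.973) and SCAMP5 (r = 0.951), for a vesicle membrane protein. The gene guca1aa (ENSDARG00000010454) encodes a guanylate cyclase activator of photoreceptors and was at 4.73, 4.78 and 3.09 FPKM in the combined libraries and 0.353 and 0.604 FPKM in the control libraries. Like aanat2, it was lower in combined library 3 than in the other 2. The gene crx came 47th in this ranking.

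Most like crx were six7 (r = 0.981), the Src-family kinase gene fynb (r = 0.971), BPTF (r = 0.970), for a chromatin remodelling subunit, RAPH1 (r = 0.968) and the kinesin gene KIF25 (r = 0.968). For pde6h they were PFKP (r = 0.951), a glycolytic phosphofructokinase gene, STRN3 (r = 0.938), zgc:77056 (r = 0.930), TRPM1 (r = 0.923), a channel of bipolar cells and pigment cells, and slc25a55a (r = 0.901). On the log2 scale the ranges of the neighbours were narrower than that of pde6h. For example, PFKP averaged 6.75 FPKM in combined and 4.63 FPKM in control offspring. These r values come from libraries in 4 groups and carry no test.

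**Figure D4:**
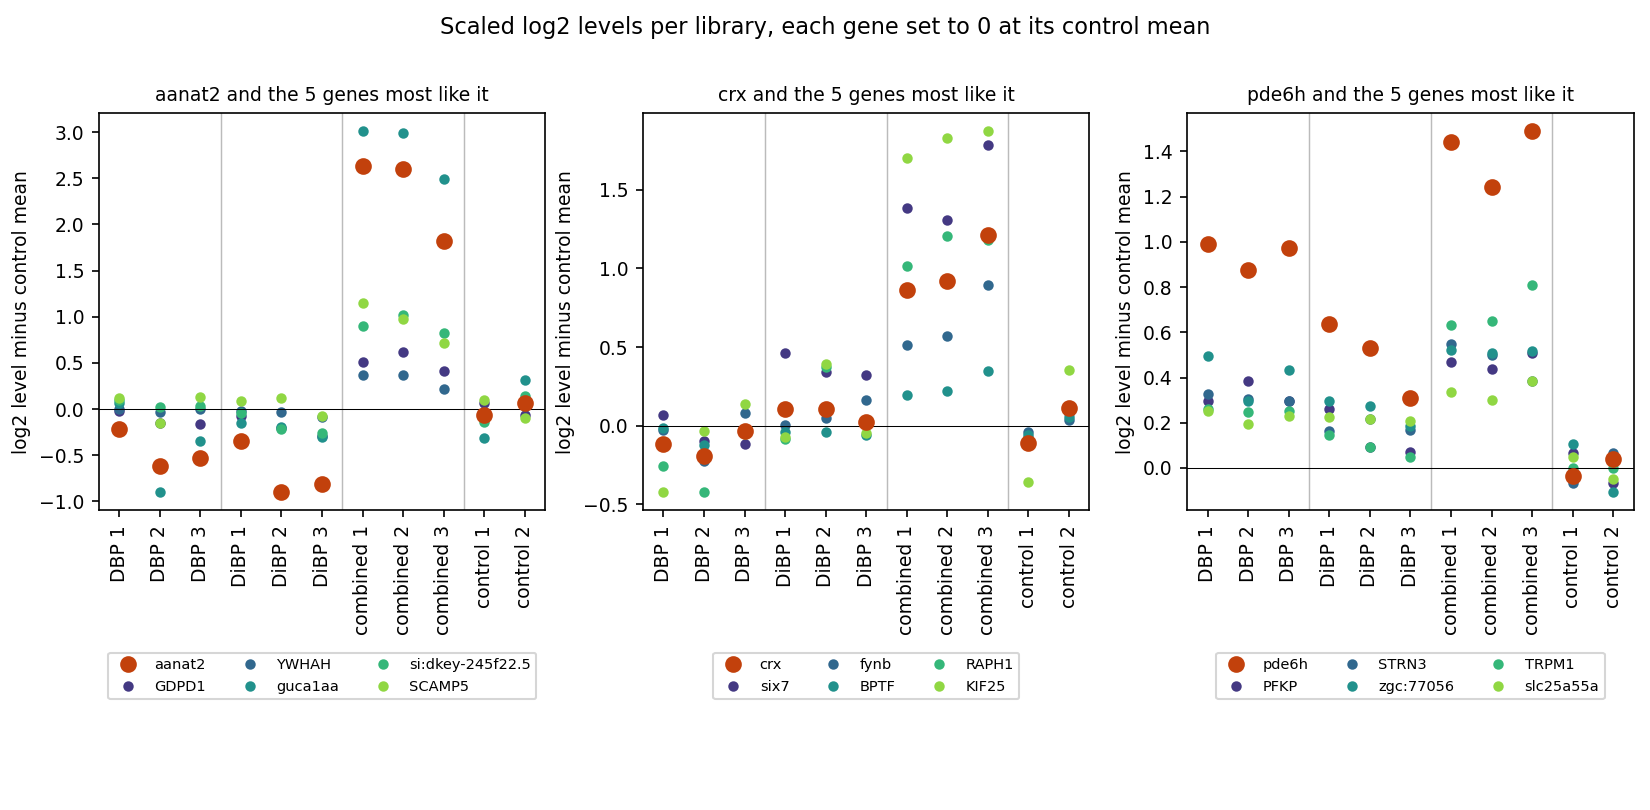
Scaled log2 levels in each of the 11 libraries (horizontal axis) minus the gene's control mean, for aanat2, crx and pde6h (large orange points) and the 5 genes with the highest Pearson r to each (small points). Combined library 3 is lower than the other 2 combined libraries for aanat2 and guca1aa and higher for crx and six7, and pde6h is above 0 in all 9 exposed libraries.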

How the data were processed

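The authors deposited 1 table of FPKM per library, and the submitters' processing notes name HISAT2 2.1.0, HTSeq 0.6.0 and the build GRCz10, without settings. How reads shared by copies of a gene were counted is not given in the sources used here. All FPKM values stood at whole-read steps (100% within 1e-06 reads), so reads per gene and library totals were recovered from them and used for the filter, the trend and the Poisson intervals. Groups came from the labels. Of 27625 genes, 19465 were tested: those with a CPM (reads scaled to library size) worth 10 reads in at least 2 libraries and 15 reads in all. FPKM were divided by trimmed mean (TMM) factors of 0.935 to 1.10, and log2(FPKM + 0.1) was fitted over all 11 libraries in limma 3.58.1 (R 4.3.3) with 7 residual degrees of freedom and a variance trend on mean log2 CPM. Fold changes of low genes are understated by the added 0.1. The 6 comparisons were each adjusted over all tested genes by Benjamini-Hochberg, and the scripts were tested on simulated data.

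Symbols come from a gene table that named 25392 of the 27625 IDs. Of 164 names in 8 lists, 9 were not found. The members and lists were chosen with earlier results of these data known. Named genes came from up to 4 called members per list and comparison with the smallest p, or the 2 highest in mean FPKM. Not every gene picked so is named, such as the clock genes cry3b, CRY2, BHLHE41 and PER1, and RPE65 of other eye cells. Also named were the 5 most alike genes by r among genes with a mean of 20 reads. Further ones were exorh, otx5, asmt, aanat1, pde6c and gnat2, of which the first 2 could not be matched. NR1D1 and pde6ha were named after their values were seen.

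The labels do not say that replicate numbers pair the libraries. In deviations from the group means, same-numbered libraries of 2 groups correlated at -0.034 to 0.136 in 15 pairs, and others at -0.136 to 0.130. Deviations within such small groups depend on each other, so these values cannot decide whether the libraries were paired. Alternatives were RLE scaling, FPKM as deposited, no filter, pseudocounts of 0.01 and 1, voom on recovered reads, the replicate block, single libraries left out, and control library 1 left out together with combined library 3.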

Additional observations from a re-analysis of the deposited data

How the results depend on the processing

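As reported, 2935, 5794, 669, 2392, 3915 and 4674 genes were called in DBP, DiBP and combined minus control, DBP minus DiBP, combined minus DBP and combined minus DiBP, and 20, 36, 16, 28, 32 and 47 of the 83 pineal and photoreceptor genes. The levels of aanat2, crx and pde6h kept the direction of every difference past its SE under every alternative run, and crx in DiBP minus control, 0.08, ran from -0.04 to 0.19 with 1 library left out. FPKM as deposited put combined minus DBP at 1.28 for crx and 0.61 for pde6h, and moved the median of all tested genes by 0.156 (log2) in that comparison and 0.108 in combined minus DiBP. It put the share of calls that were higher at 43.2% in DBP minus control (63.4% after scaling) and 46.2% in DiBP minus control (53.0%). The share was 70.5% in combined minus control (50.8%) and 39.0% in DBP minus DiBP (49.8%). It was 74.1% in combined minus DBP (45.4%) and 64.3% in combined minus DiBP (46.4%). With control library 1 and combined library 3 both left out, crx differed by 0.78 between combined and control, 4484, 2927, 7134, 7890 and 8063 genes were called in DBP minus control, combined minus control, DBP minus DiBP, combined minus DBP and combined minus DiBP, and 35, 35 and 53 of the pineal and photoreceptor genes in the first 3. No filter on low values gave 397 genes and 9 of that list in combined minus control. The replicate block gave 384 genes there, and the labels show no more than a shared number for these libraries. The cause of each change was not tested.

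Leaving out 1 library at a time gave ranges of 1553 to 6049 genes called in DBP minus control, 3628 to 8532 in DiBP minus control, 242 to 4655 in combined minus control, 1007 to 4575 in DBP minus DiBP, 2220 to 6217 in combined minus DBP and 2947 to 6729 in combined minus DiBP. For the pineal and photoreceptor list they were 14 to 33, 25 to 46, 5 to 28, 19 to 39, 24 to 37 and 43 to 52 in the same order. Of 130 calls picked by the rule for named genes, 95 stood under every alternative and 0 changed sign. Not all of these calls are named above. Some calls that are named above, such as GNAT2 with DiBP, are not among them. Only 2 control libraries, 1 of which stands apart, limit every difference from control, and the 75 to 146 aanat2 reads of the libraries outside the combined group limit those among them.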
